A study of Homo sapiens with 6 samples.

Results

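PGM3 and GFPT2 encode 2 enzymes of the hexosamine pathway and are 2 of the 403 genes in a deposited comparison of HCCLM3 cells given ginkgolic acid or vehicle. The pair was picked by gene name from that table because both were higher with ginkgolic acid, so the difference between the groups is described here and not tested. HCCLM3 is a human hepatocellular carcinoma cell line, labelled wild type. Cells received 10 µM ginkgolic acid (a phenolic acid of Ginkgo biloba that carries a long alkyl chain) or DMSO, and RNA was taken after 24 h in both groups. Each group had 3 RNA-seq libraries of total RNA. The study's title concerns HSPA8, GPX4 and ferroptosis. The labels do not say whether replicates were separate cultures, so the spread between libraries may be technical. All results come from 1 cell line.

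The hexosamine pathway branches from glycolysis and builds UDP-N-acetylglucosamine, the sugar donor for N-glycans, mucin-type O-glycans, hyaluronan, heparan sulfate, GPI anchors and the O-GlcNAc mark on nuclear and cytosolic proteins. GFPT2 and its paralog GFPT1 catalyse the committed step, in which the amide nitrogen of glutamine is moved to fructose 6-phosphate to give glucosamine 6-phosphate. GNPNAT1 then acetylates the product, PGM3 moves its phosphate from carbon 6 to carbon 1, and UAP1 joins it to UDP. The pair therefore stands at the entry of the pathway and at its isomerisation step, and the enzymes do not share a fold or a reaction.

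PGM3 (ENSG00000013375) lies on chromosome 6 from 83161150 to 83193936, minus strand, and GFPT2 (ENSG00000131459) on chromosome 5 from 180300690 to 180353387, minus strand, on GRCh38. GENCODE 29 lists 15 transcripts of PGM3, 11 of them protein-coding, and 8 of GFPT2, 3 of them protein-coding. Exons of all transcripts together cover 7335 bases in PGM3 and 4780 in GFPT2, equal to the gene lengths in the deposited table. The longest protein-coding transcript has 13 exons and 6107 bases in PGM3 and 19 exons and 3093 bases in GFPT2. PGM3 is crowded by neighbours on the opposite strand. The 3′ end of DOP1A overlaps the 3′ part of PGM3, where 1087 exon bases are shared, or 14.8% of the PGM3 exon bases. RWDD2A starts inside the annotated span of PGM3 (from 83193379 on), but 0 exon bases are shared with it. No annotated gene overlaps GFPT2. Neither DOP1A nor RWDD2A is in the deposited table. The sources used here do not say whether strand entered the counting, so reads over the shared part cannot be assigned to PGM3 or DOP1A with certainty, and their part in the PGM3 values was not tested.

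**Figure D1:**
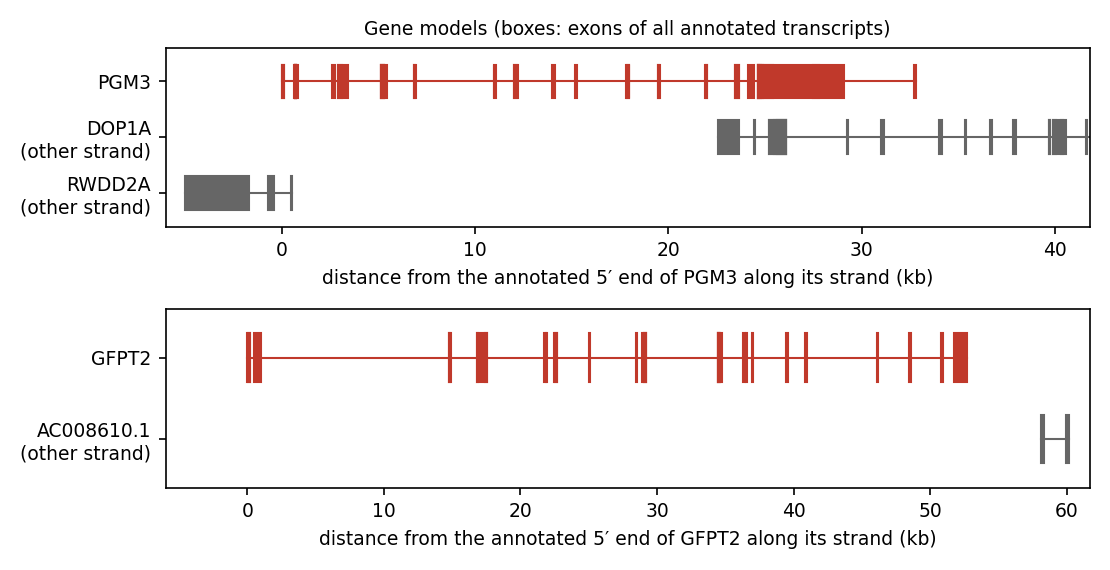
Gene models of PGM3 (top) and GFPT2 (bottom) with neighbouring genes, drawn by distance in kb from the annotated 5′ end of each gene along its strand, with boxes for the exons of all GENCODE 29 transcripts and lines for the gene spans. DOP1A and RWDD2A lie on the other strand and overlap the ends of PGM3, whereas the nearest drawn neighbour of GFPT2 lies outside it.

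The stretches upstream of the start sites are shown because the genes were higher together and because PGM3 and RWDD2A are transcribed away from each other out of a short shared interval. They are stretches without annotated exons from the RefSeq promoter windows (GRCh38.p14, 250 bases before to 50 after a start), both read on the minus strand, 5′ to 3′. The first covers chr6:83193294-83193378, the 85 bases between the outermost start of the main cluster of PGM3 transcripts and the start of RWDD2A, and the second covers chr5:180353388-180353586, the 199 bases above the GFPT2 first exon. Further exon-free stretches of the PGM3 windows, of 72 and 214 bases farther upstream, are not printed. Capitals mark matches on either strand to the CCAAT box, to the CCACG letters of the endoplasmic reticulum stress element and to the GC box motif GGGCGG.
PGM3 upstream: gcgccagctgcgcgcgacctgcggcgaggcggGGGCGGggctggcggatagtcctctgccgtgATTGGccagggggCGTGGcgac
GFPT2 upstream: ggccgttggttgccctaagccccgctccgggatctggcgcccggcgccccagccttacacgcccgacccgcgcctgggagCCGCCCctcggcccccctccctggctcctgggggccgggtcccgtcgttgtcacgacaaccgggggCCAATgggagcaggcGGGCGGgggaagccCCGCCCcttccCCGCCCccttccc

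Motifs were searched on both strands of the full 300-base windows, the positions give the first base of a match, and the RefSeq start is position 0. The CCAAT box (CCAAT) occurred once in each, at -50 in PGM3 and at -104 in GFPT2, and 34.6% of 35116 RefSeq windows hold it. The GC box (GGGCGG), the site of Sp-family factors, occurred once in PGM3, at -81, and 5 times in GFPT2, between -170 and -52. The GFPT2 match at -52 runs past the end of the printed stretch, which marks the other 4. The GC box is in 45.0% of windows. CCACG, the part that follows CCAAT in the endoplasmic reticulum stress element, occurred 3 times in each, and the full element was not searched for. In PGM3 these matches lay before the RefSeq start, at -37, -18 and -8, and in GFPT2 after it, at 18, 27 and 36. Of the PGM3 matches, only that at -37 is in the printed stretch, and those at -18 and -8 lie in an annotated PGM3 exon. In the printed PGM3 stretch CCAAT and CCACG are both on the other strand, where CCACG comes before CCAAT and not after it. In GFPT2 CCAAT lay at -104, far from all CCACG matches. The matched letters thus do not form the full element in either window. CCACG is in 38.1% of windows. The E-box CACGTG (7.26% of windows), the core TGACG of the cAMP response element (24.6%) and the TATA box TATAAA (11.5%) had 0 matches in either window. RefSeq gives PGM3 a further start, at 83193900. That window held CCAAT once (-152), GGGCGG 2 times (-127 and -26) and none of the other motifs. These matches describe letters and not bound sites.

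PGM3 was higher with ginkgolic acid. In DMSO replicates 1, 2 and 3 it had 720.7, 773.1 and 748.7 normalised read counts, and with ginkgolic acid 1669.3, 1563.9 and 1590.3. The unit is not stated, and this name is used because the values behave as reads divided by a size factor of the library. The DMSO libraries sat close together, the ginkgolic acid libraries did too, and the groups did not overlap. The means were 747.5 ± 26.2 and 1607.8 ± 54.8 (SD, n = 3 each), a 2.15-fold difference of 860.3 normalised read counts. The lowest ginkgolic acid library was 2.02 times the highest DMSO library. On the scale of log2(normalised read count + 1) the difference was 1.10 (SE 0.075). The authors' deposited table, from which the gene was chosen, gives it a log2 fold change of 1.10 and an adjusted p-value of 4e-52.

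GFPT2 was present at a lower level and was also higher with ginkgolic acid. Its normalised read counts were 151.1, 105.8 and 131.8 in DMSO replicates 1, 2 and 3, and 294.6, 320.4 and 337.9 with ginkgolic acid. DMSO replicate 2 was the lowest of the 6 libraries, and the groups did not overlap. The means were 129.6 ± 22.7 and 317.6 ± 21.8 (SD, n = 3 each), a 2.45-fold difference of 188.1 normalised read counts. The lowest ginkgolic acid library was 1.95 times the highest DMSO library, and the most distant pair of libraries differed 3.19-fold. The difference on the log2(normalised read count + 1) scale was 1.30 (SE 0.15), and it ran from 1.16 without DMSO replicate 2 to 1.42 without DMSO replicate 1. The authors' deposited table gives GFPT2 a log2 fold change of 1.30 and an adjusted p-value of 4.21e-15. Both genes were thus called higher, as were 62.8% of the 403 genes of the table, and in 61.5% all ginkgolic acid libraries lay above all DMSO libraries. Nothing is read from these shares, since every gene of the table had been selected on this contrast. The selected genes are 2.5% of the 16104 genes whose testing the authors' adjusted p-values imply. In bulk RNA, more cells with a transcript and more transcript per cell cannot be told apart.

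**Figure D2:**
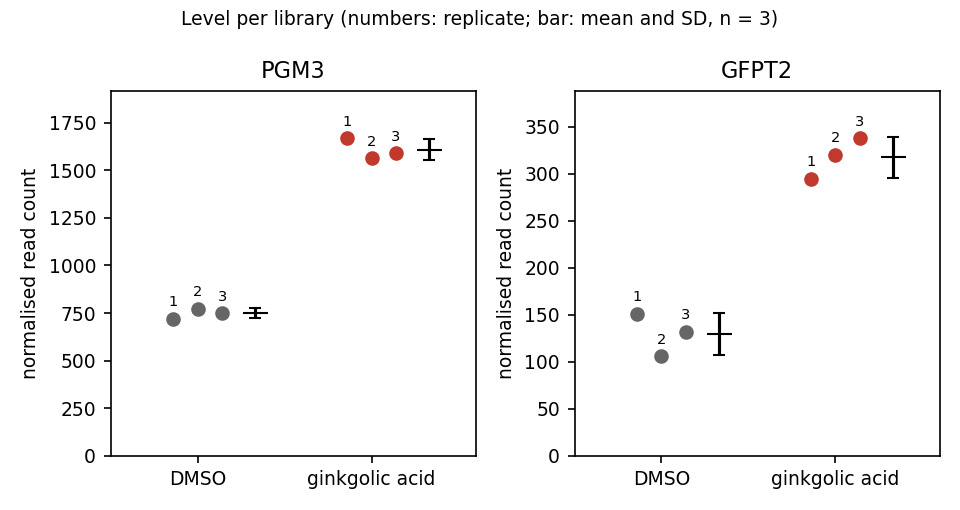
Normalised read counts of PGM3 (left) and GFPT2 (right) in each library, with points numbered by replicate and bars for the mean and SD of 3 libraries per group, on linear axes that start at 0. All ginkgolic acid libraries lie above all DMSO libraries in both genes, and the DMSO libraries of GFPT2 (105.8 to 151.1) are relatively more spread than those of PGM3 (720.7 to 773.1).

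The spread within groups differed between the genes. The coefficient of variation of PGM3 was 3.51% in DMSO and 3.41% with ginkgolic acid, where counting error alone would give 3.63% and 2.49% at its mean read numbers. Read numbers were inferred from the values, taking the common step of each library as 1 read, and the files do not state them. For GFPT2 it was 17.6% in DMSO and 6.85% with ginkgolic acid, against 8.73% and 5.60% from counting. These come from an inferred 2281 and 4827 reads of PGM3 and 394 and 958 reads of GFPT2, summed over the DMSO and the ginkgolic acid libraries. The spread of PGM3 in DMSO was below its counting error, the other spreads were above theirs, and the widest gap was that of GFPT2 in DMSO. Each value rests on 3 libraries. The order of the libraries differed too. Within DMSO, replicate 2 was the highest for PGM3 and the lowest for GFPT2, and with ginkgolic acid replicate 1 was the highest for PGM3 and the lowest for GFPT2.

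Per length, PGM3 was the more abundant transcript in every library. At the exon lengths of the table its level was 102 normalised read counts per kb in DMSO (98.3 to 105) and 219 with ginkgolic acid (213 to 228). That of GFPT2 was 27.1 per kb (22.1 to 31.6) and 66.5 per kb (61.6 to 70.7). The ratio of PGM3 to GFPT2 levels per kb was 3.11, 4.76 and 3.70 in DMSO replicates 1, 2 and 3, and 3.69, 3.18 and 3.07 with ginkgolic acid. The groups overlapped in this ratio, with means of 3.86 ± 0.84 and 3.31 ± 0.33 (SD, n = 3 each). The larger fold difference of GFPT2 was thus within the spread of the libraries: the log2 ratio of GFPT2 to PGM3 was higher with ginkgolic acid by 0.20, against a spread of 0.24 (SD within groups), and without DMSO replicate 2 by 0.04. With the longest protein-coding transcripts as lengths, PGM3 exceeded GFPT2 by 2.91 times in DMSO and 2.55 times with ginkgolic acid, so the order of the genes was the same on both length scales.

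Within the table GFPT2 had a moderate fold and PGM3 a low one, and both had a fairly high level. By the authors' log2 fold change, GFPT2 ranked 139 and PGM3 209 among the 253 higher genes, whose median was 1.34. By mean level over the 6 libraries, PGM3 ranked 17 and GFPT2 58 of 403 genes, where the median gene had 39.5 normalised read counts. Among the 60 higher genes with a mean of at least 100 normalised read counts, which had a median log2 fold change of 1.19, GFPT2 ranked 23 and PGM3 45. The folds of the pair thus lay near the middle of the well-counted higher genes for GFPT2 and in the lower part for PGM3.

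**Figure D3:**
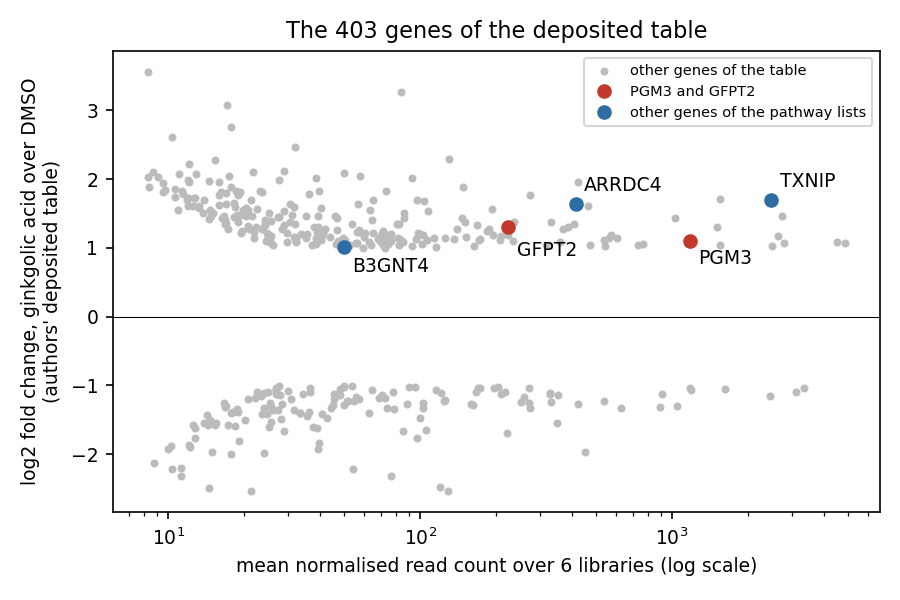
Log2 fold change of ginkgolic acid over DMSO in the authors' deposited table against the mean normalised read count over 6 libraries (log axis), 1 point per gene for the 403 selected genes. PGM3 (1.10) and GFPT2 (1.30) are in red, the 3 other genes of the pathway lists are in blue, and the empty band around 0 is left by the authors' selection.

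Few other genes of the pathway lists were among the selected genes, which are 2.5% of the 16104 genes whose testing is implied. Of the 6 genes of de novo synthesis, GFPT2 and PGM3 were in the table and GFPT1, GNPNAT1, UAP1 and UAP1L1 were not. The table holds only genes past the authors' thresholds, the smallest absolute log2 fold change in it being 1.003, so the values of these 4 genes were not analysed here and nothing follows about their direction. The 8 genes of glucose entry (such as HK2 and GPI), the 5 of glutamine supply (such as GLUL) and the 5 of hexosamine salvage (such as NAGK, which phosphorylates recovered N-acetylglucosamine) gave 0 genes. So did the lists for UDP-sugar interconversion, sialic acid synthesis, O-GlcNAc cycling (OGT and OGA), N-glycan assembly and branching, GPI anchors, hyaluronan and heparan sulfate, the other phosphohexomutases and the unfolded protein response of the endoplasmic reticulum. The lists are chosen and not complete, so a 0 does not mean that no gene linked to the process was selected. In all, 15 lists with 135 symbols, 134 of them found in GENCODE 29, had 5 genes in the table, all 5 higher with ginkgolic acid and 0 lower, where 62.8% of the table was higher. PGM3 and GFPT2 are among these 5, so the count is no separate evidence of a direction. At a selected share of 2.5%, few or 0 genes are to be looked for in lists this short, so nothing is read from the zeros.

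Among the listed enzymes that use the product of the pathway, B3GNT4 was the single selected gene. It encodes a transferase that adds N-acetylglucosamine to galactose in poly-N-acetyllactosamine chains (chromosome 12, 122203543 to 122208952, plus strand), and it was 1 of 12 genes in the list of O-glycan N-acetylglucosamine transferases. Its normalised read counts were 43.0, 31.5 and 25.0 in DMSO replicates 1, 2 and 3, and 62.5, 80.4 and 57.9 with ginkgolic acid. The groups did not overlap, but levels were low and the gap between them was narrow. The means were 33.2 ± 9.16 and 66.9 ± 11.9 (SD, n = 3 each), a 2.02-fold difference. The authors' deposited table gives it a log2 fold change of 1.01, close to the smallest that was selected.

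The last 2 listed genes, TXNIP and ARRDC4, are arrestin-domain genes induced by glucose 6-phosphate through the transcription factor MondoA. TXNIP had 1103, 1172 and 1215 normalised read counts in DMSO replicates 1, 2 and 3, and 3824, 3881 and 3669 with ginkgolic acid. ARRDC4 went from a mean of 201.9 ± 19.1 to 629.3 ± 28.0 (SD, n = 3 each). Their folds of 3.26 and 3.12 were larger than those of PGM3 and GFPT2 in the same libraries, and the MondoA gene MLXIP and its partner MLX were not in the table.

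The genes whose library profile was most like each enzyme were not the same. Likeness was the Pearson correlation of log2(normalised read count + 1) over the 6 libraries, among genes with a mean of at least 100. It is a description, since all these genes were selected for a difference between the same groups, and 57 of the 101 compared genes had a correlation with PGM3 above 0.9 and 58 with GFPT2. PGM3 and GFPT2 themselves correlated at r = 0.954. PGM3 was most like SDCBP2, which encodes syntenin-2, a PDZ-domain adaptor (r = 0.9997), TXNIP (r = 0.998) and SEC24D, a cargo adaptor of COPII vesicles (r = 0.996). SDCBP2 had 92.1, 102.0 and 99.8 normalised read counts in DMSO and 303.1, 283.5 and 280.0 with ginkgolic acid, in replicate order.

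GFPT2 was most like KIAA1024 (r = 0.998), AQP7, a channel for glycerol and water (r = 0.997), and MCEE, the mitochondrial methylmalonyl-CoA epimerase (r = 0.992). KIAA1024 had 103.1, 81.0 and 98.8 normalised read counts in DMSO and 197.1, 211.8 and 220.3 with ginkgolic acid. AQP7 had 238.2, 183.0 and 228.6 in DMSO and 475.9, 539.7 and 546.8 with ginkgolic acid. As for GFPT2, DMSO replicate 2 was the lowest library and ginkgolic acid replicate 1 the lowest of its group in KIAA1024, AQP7 and MCEE. These genes thus shared the lowest libraries of GFPT2 as well as the difference between groups, but they were picked by correlation over the same libraries. For PGM3 the order within ginkgolic acid was shared less. Replicate 1 was the highest for PGM3 (1669.3) and SDCBP2 (303.1) but the lowest for SEC24D (2080, against 2205 and 2148), and TXNIP was highest in replicate 2 (3881). Within DMSO, SDCBP2 and SEC24D had the order of PGM3, and TXNIP did not.

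**Figure D4:**
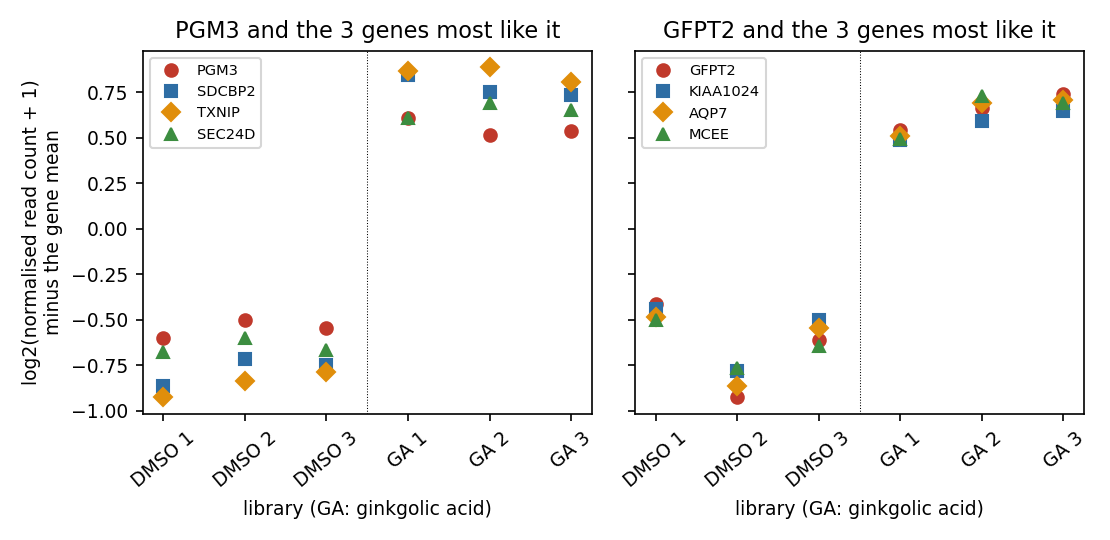
Log2(normalised read count + 1) minus the mean of each gene, by library, for PGM3 (left) and GFPT2 (right) with the 3 genes most like each, with DMSO libraries left of the dotted line and ginkgolic acid (GA) libraries right of it. In the right panel all 4 genes are lowest in DMSO replicate 2, and in the left panel SDCBP2, TXNIP and SEC24D differ more between the groups (2.95, 3.26 and 2.46 times) than PGM3 (2.15 times).

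By the same inference, the libraries held 67006 to 98627 reads over the 403 genes, and their total depth is unknown. ALB (albumin) was the single one of 8 hepatocyte markers in the table. It was listed at 16.0, 15.3 and 26.0 normalised read counts in DMSO and 7.4, 7.6 and 0.9 with ginkgolic acid, so this hepatocyte marker was scarce in both groups. None of 17 markers of fibroblasts, leukocytes and endothelium was in the table, and their levels were not analysed here. The part of cell makeup in the PGM3 and GFPT2 values was not tested.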

How the data were processed

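RNA-seq libraries of HCCLM3 cells, 3 with ginkgolic acid and 3 with DMSO, were grouped and numbered by their titles. The submitters' processing notes name DESeq2 1.20.0, the counter featureCounts 1.5.0-p3, the aligner HISAT2 2.0.5, the read trimmer fastp and CASAVA 1.8, all with hg38. The sources used here give no settings. The deposited values per library are a signal with no stated unit. Each was a whole multiple of 1 step per library (tolerance 1e-06), as read counts over a size factor (0.921 to 1.139) would be. The deposited table headed FPKM held the same values to within 4.6e-08. Per the file headers, the comparison table also gives the authors' log2 fold changes, p-values, adjusted p-values and gene lengths. All 403 genes had the positions of GENCODE 29 (GRCh38).

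Differences were estimated with limma 3.58.1 in R 4.3.3 on log2(value + 1) over all 403 genes (mean of at least 1, trended prior, Benjamini-Hochberg threshold 0.05), and the fit was tested on simulated data. Genes named were PGM3, GFPT2, listed genes in the table and the 3 most correlated genes of each. The members, 19 lists (4 of cell type markers) and motifs were chosen with earlier results of these data known, and 1 listed gene is not reported here. Alternatives changed the pseudocount, filter, scaling, prior, block and libraries. Python 3.11.15, pandas 2.3.3 and matplotlib 3.10.9 were used.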

Additional observations from a re-analysis of the deposited data

How the results depend on the processing

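PGM3 and GFPT2 were higher with ginkgolic acid under every alternative run. Rescaling to the median ratio over the 403 genes centres libraries on selected genes and shifted the median of all genes by -0.88. This rescaling gave log2 fold changes of 0.20 (SE 0.11) for PGM3 and 0.40 (SE 0.155) for GFPT2. It left 61 genes called higher against 253. When libraries were left out 1 at a time, the ranges were 1.08 to 1.13 for PGM3, 1.16 to 1.42 for GFPT2, 0.04 to 0.35 for the log2 ratio of GFPT2 to PGM3 (0.04 without DMSO replicate 2, 0.35 without DMSO replicate 1, against 0.20), 250 to 253 genes called higher and 148 to 150 lower. Across genes, deviations from the group mean of libraries with the same number had correlations of -0.03, 0.00 and -0.07, so the numbers were not taken as pairs. In the fit blocked on replicate number, the log2 fold changes stayed at 1.10 (SE 0.078) and 1.30 (SE 0.152), with 253 and 150 calls. The ratio of group means with no pseudocount, an alternative added after seeing the data, gave 1.10 and 1.29. The count test planned for recovered reads was not run, because the reads are inferred from values with no stated unit. All genes had been selected on these libraries, so stable directions were largely fixed in advance. At the inferred read numbers, counting error was larger for GFPT2 than for PGM3 (8.73% against 3.63% in DMSO). The spread of GFPT2 in DMSO (17.6%) was above its counting error.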
